A study of Mus musculus with 12 samples.

Results

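The genes described here bind, carry, make or break down retinoids, the vitamin A compounds. They are Crabp1, Crabp2, Rbp4, Stra6, Aldh1a1, Aldh1a2, Aldh1a3, Cyp26a1 and Cyp26b1, taken by symbol from an RNA sequencing table of 19150 genes, and all 9 were found in it. The table covers 12 libraries, 2 for each of 6 cell populations that were sorted by flow cytometry from dorsal skin. The mice were of the outbred CD1 stock and 5 days old, an age at which hair follicles grow. The mesenchymal populations were dermal sheath, dermal papilla and dermal fibroblasts, and the others were outer root sheath, matrix and melanocytes. No allele, transgene or treatment is named in the labels for any of these populations, and the gates and markers of the sort are not given in the sources used here.

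The dermal sheath wraps the follicle from outside, the papilla is a knot of mesenchymal cells enclosed by the bulb, and fibroblasts fill the dermis around the follicles. Epithelial layers of the follicle include the outer root sheath and the matrix, whose dividing cells around the papilla form the hair shaft and inner root sheath. Melanocytes pigment the hair. Retinol travels in blood bound to the carrier protein encoded by Rbp4 and enters many cells through the receptor encoded by Stra6. Inside the cell it is oxidised to retinal and then, by the enzymes encoded by Aldh1a1, Aldh1a2 and Aldh1a3, to retinoic acid. Retinoic acid binds the cytosolic proteins encoded by Crabp1 and Crabp2, acts through nuclear receptors that regulate transcription, and is inactivated by the cytochrome P450 enzymes encoded by Cyp26a1 and Cyp26b1. In skin, retinoids influence keratinocyte differentiation and the hair cycle.

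Values are FPKM, a read level scaled to transcript length and library size, and means are given ± SD over 2 libraries. FPKM summed to between 373066 and 524040 in a library, 10951 to 12413 genes reached 1 FPKM, and read depth is unknown. Whether the 2 libraries of each population were made from separate animals is not given in the labels, so the p-values measure the spread between libraries, which may be technical. A value of 0 may be a failed estimate, since between 7 and 30 genes a population were listed at 0 in both of its libraries although they reached 100 FPKM elsewhere. In bulk samples, fewer cells of a type and less RNA per cell cannot be told apart. The fibroblast libraries stood apart from their label: the 8 melanocyte markers summed to between 7019 and 7523 FPKM there and to between 12804 and 16060 FPKM in the melanocyte libraries, against at most 104 FPKM in sheath and papilla. All 8 markers were above 1 FPKM in both fibroblast libraries, at a median of 47.7% and 39.3% of their melanocyte level. No retinoid gene of the 9 exceeded 3.12 FPKM in a melanocyte library. Any melanocyte RNA in the fibroblast libraries would make the fibroblast level of a gene that is low in melanocytes read too low. Fibroblast values were not rescaled for this, and its size was not tested. Papilla and sheath libraries carried their own markers: 7 papilla markers summed to between 2110 and 2112 FPKM in papilla against at most 238 FPKM in any other library, and 4 sheath markers to between 1015 and 1655 FPKM in sheath against at most 137 FPKM elsewhere. Lef1 among the papilla markers was as high in matrix, at 105 and 115 FPKM, as in papilla, at 101 and 104 FPKM. It reached 76.7 and 119 FPKM in melanocytes. Sostdc1, another papilla marker, was at 92.9 and 104 FPKM in outer root sheath, against 460 and 641 FPKM in papilla. Itga8 among the sheath markers overlapped between sheath, at 16.9 and 32.1 FPKM, and papilla, at 15.3 and 20.9 FPKM. The 7 fibroblast markers did not set fibroblasts apart from sheath, with sums of 6732 to 8537 FPKM in fibroblasts and 5337 to 6931 FPKM in sheath, against 578 to 669 FPKM in papilla. Pdgfra and Ly6a of this list were higher in sheath than in fibroblasts, and Dlk1 was highest in papilla. Dcn, also of this list, was at 482 and 407 FPKM in matrix. Outer root sheath and matrix shared markers. The 6 outer root sheath markers stood at a median of 37.8% and 27.1% of their outer root sheath level in the matrix libraries. In the outer root sheath libraries, 6 matrix markers stood at a median of 25.5% and 19.7% of their matrix level.

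Differences are log2 differences of FPKM + 1, with their standard errors, from 1 limma fit to all 12 libraries. A gene was called higher or lower where the Benjamini-Hochberg adjusted p over the 13974 tested genes was under 0.05 and the log2 difference at least 1 in size. Of the 9 genes, 8 were tested and Cyp26a1 was too low. Aldh1a2 reached the minimum of 1 FPKM in 2 libraries through the sheath alone, and Aldh1a1 would not have reached it without the fibroblast libraries. For these 2 genes the p-values of their differences come from a fit with no such filter, and the counts of calls below leave them out unless all 8 genes are named.

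**Figure D1:**
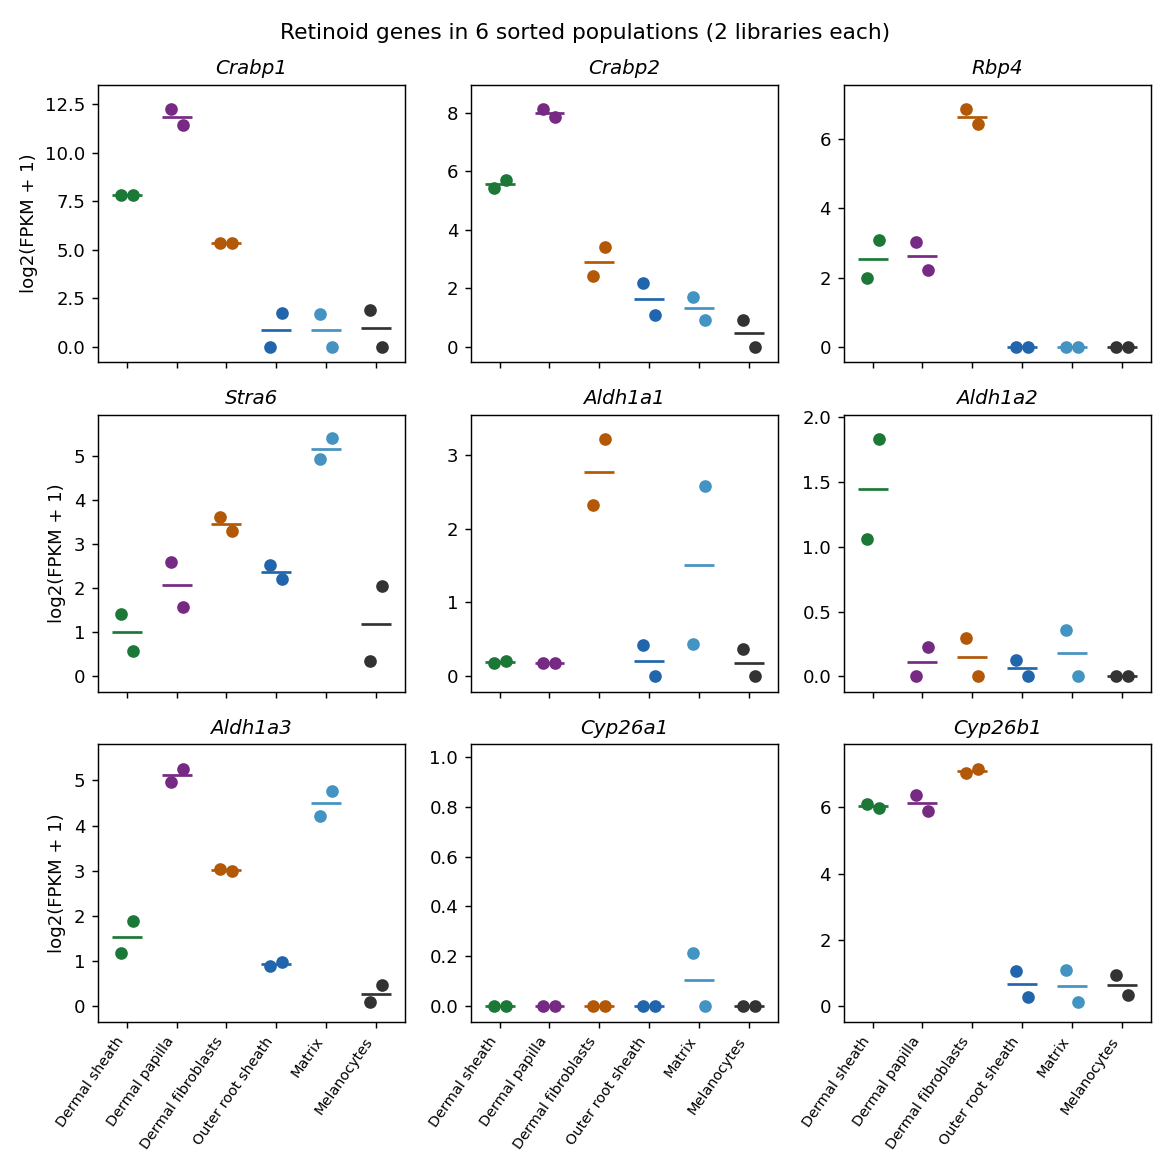
Level of each of the 9 genes as log2(FPKM + 1) on the vertical axis, in 6 populations on the horizontal axis. Points are the 2 libraries and lines their mean. Crabp1 and Crabp2 were highest in papilla, Rbp4 and Cyp26b1 in fibroblasts and Stra6 in matrix, while Cyp26a1 was at 0 in 11 of 12 libraries; vertical scales differ between panels.

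Crabp1, on chromosome 9 (mm10, 54764748 to 54773110, plus strand), encodes a cytosolic protein that binds retinoic acid and is linked to its breakdown. It had by far the highest level of the 9 genes. The papilla libraries held 4805 and 2776 FPKM, the sheath libraries 225 and 224 FPKM, and the fibroblast libraries 39.4 and 39.4 FPKM. The outer root sheath, matrix and melanocyte populations had 1 library each at 0 and the other between 2.22 and 2.74 FPKM. The 3 dermal populations did not overlap with each other or with the other 3 populations. Crabp1 was lower in sheath than in papilla by a log2 difference of -4.02 ± 0.71, 16.2-fold (limma adjusted p = 0.00206). It was higher in sheath than in fibroblasts by 2.48 ± 0.71, 5.59-fold (limma adjusted p = 0.0355), and higher in papilla than in fibroblasts by 6.50 ± 0.71, 90.5-fold (limma adjusted p = 7.10e-05). The fibroblast level in turn was above that of outer root sheath by 4.47 ± 0.71 (limma adjusted p = 0.000484). The spread in this fit is shared by all populations and was widened for Crabp1 by the libraries at 0. With the dermal libraries fitted on their own, the SE was 0.28 and the adjusted p (limma) was 0.000116, 0.000794 and 1.66e-05 for the 3 comparisons in the same order.

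Markers of the papilla were also measurable in the other dermal libraries. The 7 papilla markers stood at a median of 5.51% and 9.27% of their papilla level in the sheath libraries, with Rspo4 lowest at 1.74% and 1.37%, and at 0.915% and 0.900% in the fibroblast libraries. Crabp1 stood at 5.95% and 5.91% of its papilla level in sheath and at 1.04% in each fibroblast library. Its share thus lay inside the range of the papilla markers in both populations. In the fibroblast libraries that range was wide, from 0.182% to 37.7% and from 0.376% to 34.1%, with Lef1 at the top. Most shares would lie inside so wide a range, and the part of papilla RNA in the fibroblast level was not tested. When the median share of papilla RNA was subtracted, Crabp1 in sheath fell to 16.3 and 0 FPKM and the sheath minus fibroblast difference became -0.52 (limma adjusted p = 0.852), while the median over all genes moved from -0.03 to -0.12. The step from fibroblasts to outer root sheath was then 1.71 (limma adjusted p = 0.257). The sheath minus fibroblast difference also lost its call with a pseudocount of 0.1 (limma adjusted p = 0.481), with no filter on low values (limma adjusted p = 0.0893), with quantile normalization (limma adjusted p = 0.0869), and without any 1 of the 4 sheath and fibroblast libraries (limma adjusted p from 0.126 to 0.138). The part of papilla RNA in the sheath level was not tested, nor was transcription of these markers in the sheath itself.

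Crabp2, on chromosome 3 (mm10, 87948666 to 87953376, plus strand), encodes the protein that carries retinoic acid to its nuclear receptors. Its order of levels was that of Crabp1, at a lower level. The papilla libraries held 277 and 227 FPKM, the sheath libraries 42.1 and 50.9 FPKM, and the fibroblast libraries 4.30 and 9.59 FPKM. Outer root sheath had 3.49 and 1.14 FPKM, matrix 2.25 and 0.890 FPKM, and melanocytes 0.889 and 0 FPKM. The 3 dermal populations did not overlap, and the fibroblast libraries lay just above those of outer root sheath. Crabp2 was lower in sheath than in papilla by -2.41 ± 0.47, 5.32-fold (limma adjusted p = 0.00391), and higher in sheath than in fibroblasts by 2.66 ± 0.47, 6.32-fold (limma adjusted p = 0.00224). Papilla exceeded fibroblasts by 5.07 ± 0.47, 33.6-fold (limma adjusted p = 2.19e-05). The step from fibroblasts to outer root sheath was 1.27 ± 0.47 (limma adjusted p = 0.0487), and it lost its call in 13 of 24 alternatives. Crabp2 in sheath was at 16.7% and 20.2% of its papilla level. This share too lay inside the range of the papilla markers, the highest of which stood at 28.1% and 28.8% in sheath. After subtraction of papilla RNA at the median marker share, the sheath minus fibroblast difference of Crabp2 was 2.53 (limma adjusted p = 0.00606). The part of papilla RNA in the sheath level of Crabp2 was not tested. With a pseudocount of 0.1, the limma adjusted p was 0.192 for Crabp1 and 0.124 for Crabp2 between sheath and papilla, and 0.0738 for Crabp2 between sheath and fibroblasts.

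The level of Crabp1 relative to Crabp2 differed between populations. Mean FPKM, which is scaled to transcript length, was 3790 ± 1434 for Crabp1 and 252 ± 34.7 for Crabp2 in papilla, 225 ± 0.835 and 46.5 ± 6.22 in sheath, and 39.4 ± 0.00841 and 6.95 ± 3.74 in fibroblasts. The 2 genes had a Pearson correlation of 0.963 over the 12 libraries, which share their populations. No test of this difference in proportion was made.

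The promoter of Crabp1 is shown because this gene had the highest level, with the stretch from 250 bases before to 50 bases after the RefSeq start (GRCm38.p6, chr9:54764498-54764797, plus strand). Capitals mark GGGCGG, a GC box letter string, on either strand, and 5 were found. TATAAA was not found in this window.
Crabp1: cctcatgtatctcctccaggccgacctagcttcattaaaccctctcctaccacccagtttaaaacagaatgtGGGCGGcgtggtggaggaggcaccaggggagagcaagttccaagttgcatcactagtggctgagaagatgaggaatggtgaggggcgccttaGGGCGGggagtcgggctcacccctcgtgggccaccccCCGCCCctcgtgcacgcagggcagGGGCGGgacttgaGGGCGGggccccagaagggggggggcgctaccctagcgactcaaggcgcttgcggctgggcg
GGGCGG was found in 35.7% and TATAAA in 13.6% of 32851 mouse promoters of this length, both strands searched. The table held promoters for 7 of the 9 genes, 12 promoters in all, and not for Crabp2 and Aldh1a3.

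Rbp4 and Stra6 encode the blood carrier of retinol and its cell-surface receptor, and they peaked in different populations. Rbp4, on chromosome 19 (mm10, 38116629 to 38125281, minus strand), is known chiefly as a liver product. The fibroblast libraries held 115 and 85.7 FPKM, the sheath libraries 2.96 and 7.44 FPKM, and the papilla libraries 7.15 and 3.63 FPKM. All 6 libraries of outer root sheath, matrix and melanocytes were listed at 0. Fibroblasts stood clear of every other library, while sheath and papilla overlapped. Rbp4 was lower in sheath than in fibroblasts by -4.12 ± 0.38, 17.4-fold (limma adjusted p = 2.68e-05), and lower in papilla than in fibroblasts by -4.03 ± 0.38, 16.4-fold (limma adjusted p = 2.61e-05). Sheath and papilla differed by -0.09 ± 0.38 (limma adjusted p = 0.931), a sign that turned under quantile normalization. The libraries at 0 narrowed the shared spread for Rbp4, and with the dermal libraries fitted on their own the limma adjusted p was 0.00059 and 0.000603 for the comparisons with fibroblasts. Both melanocyte libraries, whose markers were high in the fibroblast libraries, were listed at 0 for Rbp4.

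RefSeq lists 2 starts for Rbp4, and the promoter with motif matches is shown (GRCm38.p6, chr19:38124762-38125061, minus strand). Capitals mark TATAAA, at 28 to 23 bases before the start, and 2 copies of GGGCGG on the opposite strand. The other Rbp4 promoter held none of the motifs searched.
Rbp4: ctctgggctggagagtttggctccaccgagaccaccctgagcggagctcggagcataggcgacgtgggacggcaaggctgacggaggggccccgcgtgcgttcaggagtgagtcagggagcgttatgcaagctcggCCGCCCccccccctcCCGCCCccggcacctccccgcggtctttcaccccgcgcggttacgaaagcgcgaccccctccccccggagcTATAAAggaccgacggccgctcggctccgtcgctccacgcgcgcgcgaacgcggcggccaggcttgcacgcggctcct

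Stra6, on chromosome 9 (mm10, 58063788 to 58153996, plus strand), was highest in matrix. The matrix libraries held 29.3 and 41.2 FPKM, the fibroblast libraries 11.3 and 8.90 FPKM, and the outer root sheath libraries 4.79 and 3.62 FPKM. Papilla had 4.99 and 2.00 FPKM, sheath 1.68 and 0.497 FPKM, and melanocytes 0.282 and 3.12 FPKM. Matrix and fibroblast libraries overlapped with none of the others, and sheath did not overlap with papilla or outer root sheath. Stra6 was lower in outer root sheath than in matrix by -2.79 ± 0.53, 6.92-fold (limma adjusted p = 0.00832), lower in sheath than in fibroblasts by -2.46 ± 0.53, 5.51-fold (limma adjusted p = 0.00789), and lower in fibroblasts than in matrix by -1.70 ± 0.53 (limma adjusted p = 0.0229). The differences of papilla minus fibroblasts (-1.38 ± 0.53, limma adjusted p = 0.115), sheath minus papilla (-1.08 ± 0.53, limma adjusted p = 0.229), sheath minus outer root sheath (-1.37 ± 0.53, limma adjusted p = 0.0566) and papilla minus outer root sheath (-0.29 ± 0.53, limma adjusted p = 0.701) did not pass. Without the sheath library 2 or the fibroblast library 1, the sheath minus fibroblast call was lost (limma adjusted p = 0.0746 and 0.0591). The outer root sheath minus matrix call was lost without library 2 of either population (limma adjusted p = 0.0724 and 0.0780), and with a pseudocount of 0.1 (limma adjusted p = 0.0689). The fibroblast minus matrix call was lost without library 2 of matrix (limma adjusted p = 0.124) or either fibroblast library (limma adjusted p = 0.0608 and 0.0988), with a pseudocount of 0.1 (limma adjusted p = 0.121), and with no filter on low values (limma adjusted p = 0.0544).

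Matrix markers moved with part of this pattern. Of 7 matrix markers, which summed to between 625 and 633 FPKM in matrix, 4 were at least 1 FPKM in both sheath libraries, 5 in both papilla libraries and 6 in both fibroblast libraries, with sums of 31.9 to 32.1, 77.8 to 108 and 76.9 to 103 FPKM. For the 6 with at least 5 FPKM in matrix, the median share of the matrix level was 3.37% and 5.20% in sheath, 13.9% and 7.16% in papilla, and 13.1% and 11.6% in fibroblasts. Stra6 stood at 4.76% and 1.41% of its matrix level in sheath, at 14.2% and 5.67% in papilla, and at 32.0% and 25.2% in fibroblasts, where the highest marker share was 28.7% and 23.0%. After the median share of matrix RNA was subtracted, Stra6 was 0.491 and 0 FPKM in sheath, 0.0979 and 0 FPKM in papilla, and 6.67 and 4.81 FPKM in fibroblasts. The papilla minus fibroblast difference was then -2.67 (limma adjusted p = 0.00267), and the sheath minus papilla difference turned to 0.22 (limma adjusted p = 0.867), while the median over all genes moved from -0.09 to 0.04.

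**Figure D2:**
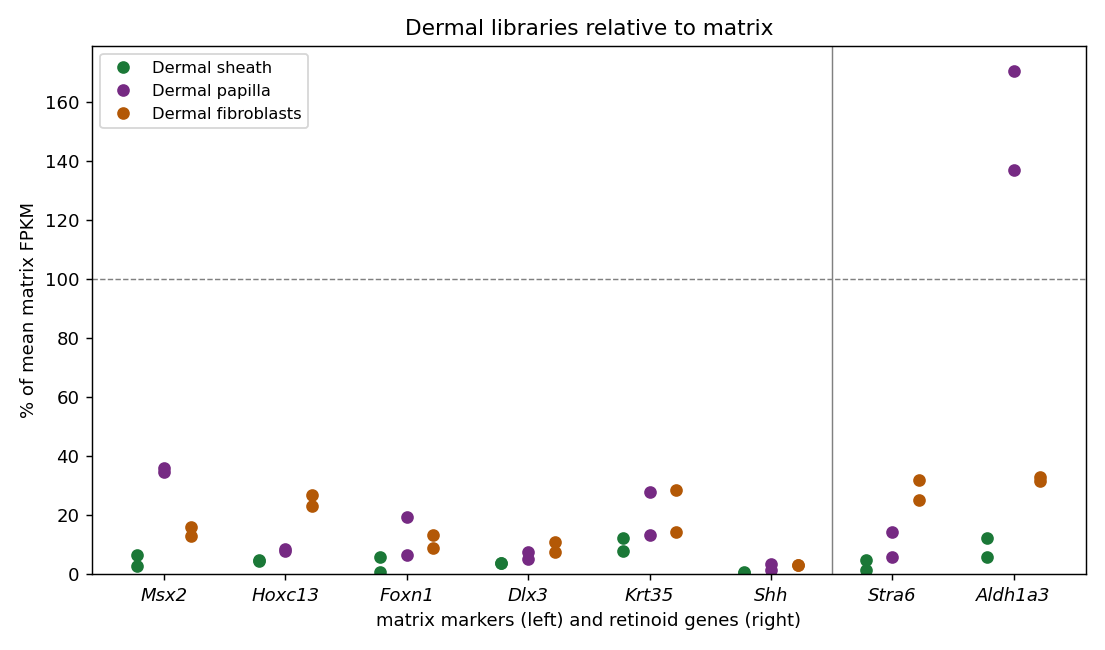
Level of 6 matrix markers (left of the line) and of Stra6 and Aldh1a3 (right) in each sheath, papilla and fibroblast library, as a percentage of the mean matrix FPKM on a linear vertical axis. Points are single libraries and the dashed line marks the matrix level. Aldh1a3 in papilla lay at 137% and 170%, above every matrix marker there, while Stra6 in sheath and papilla lay among the markers.

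Aldh1a1, Aldh1a2 and Aldh1a3 encode the retinal dehydrogenases that make retinoic acid, and in the dermis each had its highest level in a different population. Aldh1a3, on chromosome 7 (mm10, 66390890 to 66427517, minus strand), had the highest levels of the 3 genes. The papilla libraries held 30.1 and 37.4 FPKM, the matrix libraries 17.6 and 26.4 FPKM, and the fibroblast libraries 7.20 and 6.95 FPKM. Sheath had 1.26 and 2.68 FPKM, outer root sheath 0.864 and 0.978 FPKM, and melanocytes 0.0632 and 0.375 FPKM. No 2 of the 6 populations overlapped. Aldh1a3 was lower in sheath than in papilla by -3.58 ± 0.32, 12-fold (limma adjusted p = 2.41e-05), and lower in sheath than in fibroblasts by -1.49 ± 0.32, 2.80-fold (limma adjusted p = 0.00805). It was 4.28-fold higher in papilla than in fibroblasts (limma adjusted p = 0.000849). In the epithelium, outer root sheath was below matrix by -3.55 ± 0.32, 11.7-fold (limma adjusted p = 0.000238). Fibroblasts were below matrix by -1.48 ± 0.32 (limma adjusted p = 0.00326). Some neighbours in the order did not pass: papilla minus matrix was 0.62 ± 0.32 (limma adjusted p = 0.140), sheath minus outer root sheath 0.59 ± 0.32 (limma adjusted p = 0.162), and outer root sheath minus melanocytes 0.67 ± 0.32 (limma adjusted p = 0.148). The sheath minus fibroblast difference lost its call without library 1 of sheath (-1.13, limma adjusted p = 0.0868), without either fibroblast library (limma adjusted p = 0.0536 and 0.0501) and with a pseudocount of 5 (-0.80). In the papilla, Aldh1a3 after subtraction of matrix RNA was 27.0 and 35.8 FPKM, and the papilla level was above that of matrix itself. In the fibroblasts Aldh1a3 was 4.32 and 4.40 FPKM after the same subtraction. In the sheath it stood at 3.73% and 7.95% of its papilla level, inside the range of the papilla markers there. After subtraction of papilla RNA it was 0 in both sheath libraries. The part of papilla RNA in the sheath level of Aldh1a3 was not tested.

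Aldh1a1, on chromosome 19 (mm10, 20492715 to 20643465, plus strand), reached 4.01 and 8.25 FPKM in fibroblasts. The matrix libraries disagreed, at 0.355 and 4.97 FPKM, and each of the other 8 libraries was at most 0.344 FPKM. Among dermal populations, fibroblasts were thus the high ones, without overlap. Aldh1a1 was lower in sheath than in fibroblasts by -2.57 ± 0.60, 5.93-fold (limma with no filter, adjusted p = 0.0253), and lower in papilla than in fibroblasts by -2.59 ± 0.60, 6.00-fold (limma with no filter, adjusted p = 0.0224). Without library 2 of fibroblasts, in the filtered fit, these calls were lost (limma adjusted p = 0.0749 and 0.0679). Fibroblasts minus matrix was 1.26 (limma with no filter, adjusted p = 0.148), and without library 2 of matrix it was 2.33. Outer root sheath minus matrix was -1.29 (limma with no filter, adjusted p = 0.342), and without library 1 of matrix it was -2.36. Aldh1a7, a near-identical paralog, was listed at 0 in all 6 dermal libraries and at most at 0.175 FPKM elsewhere; how reads that fit both genes were counted is not given in the sources used here.

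Aldh1a2, on chromosome 9 (mm10, 71215789 to 71296243, plus strand), was low everywhere. The sheath libraries held 1.08 and 2.55 FPKM, and each of the other 10 libraries was at most 0.283 FPKM. The sheath libraries therefore lay above all others. The difference was 1.33 ± 0.24 to papilla (limma with no filter, adjusted p = 0.00669) and 1.29 ± 0.24 to fibroblasts (limma with no filter, adjusted p = 0.00811), and at such levels the added 1 FPKM makes these smaller than the ratio of the levels. In the filtered fit, the first call was lost without library 1 of papilla (limma adjusted p = 0.0526) and the other without library 2 of fibroblasts (limma adjusted p = 0.0633). With a pseudocount of 5, both log2 differences were 0.41. In papilla the other enzyme gene, Aldh1a3, was high, and Aldh1a1 and Aldh1a2 were at most 0.171 FPKM.

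Cyp26b1 and Cyp26a1 encode enzymes that inactivate retinoic acid, and Cyp26b1 had nearly all of the level of the pair. Cyp26b1 lies on chromosome 6 (mm10, 84571414 to 84593908, minus strand). The fibroblast libraries held 131 and 142 FPKM, the papilla libraries 82.2 and 58.1 FPKM, and the sheath libraries 67.1 and 62.4 FPKM. The 6 libraries of outer root sheath, matrix and melanocytes were between 0.0816 and 1.13 FPKM. All 6 dermal libraries were thus far above the other 6, fibroblasts were above the other dermal populations, and sheath lay inside the range of papilla. Cyp26b1 was higher in sheath than in outer root sheath by 5.36 ± 0.38 (limma adjusted p = 1.31e-06), than in matrix by 5.43 ± 0.38 (limma adjusted p = 8.94e-07) and than in melanocytes by 5.39 ± 0.38 (limma adjusted p = 8.47e-07). Sheath minus papilla was -0.09 ± 0.38 (limma adjusted p = 0.924). Sheath minus fibroblasts was -1.06 ± 0.38 (limma adjusted p = 0.0942) and papilla minus fibroblasts -0.97 ± 0.38 (limma adjusted p = 0.125), so neither passed. The sheath minus fibroblast difference passed with the dermal libraries fitted on their own (limma adjusted p = 0.0212), with that pair fitted alone (limma adjusted p = 0.0177), with a replicate block (limma adjusted p = 0.0162) and with a pseudocount of 5 (-1.02, limma adjusted p = 0.00548).

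Cyp26a1, on chromosome 19 (mm10, 37697798 to 37701536, plus strand), is known as a gene that retinoic acid itself induces in many cells. It was listed at 0 in 11 of 12 libraries and at 0.158 FPKM in library 1 of matrix. It entered no test. The promoters of the Cyp26 genes are printed because the levels of this pair are so unequal. Capitals mark the letters TATAAA and copies of the GC box letters GGGCGG. Counted in bases from the RefSeq start, TATAAA lies at 29 to 34 for Cyp26a1, which is after the start. For Cyp26b1 it lies at -139 to -134. Whether either copy acts as a TATA box was not tested. In the Cyp26a1 promoter, capitals also mark a direct repeat with a spacer of 5 bases, the spacing known for retinoic acid receptor sites. The unit searched for, on both strands, was AGGTCA. A variant with the letters AGTTCA was accepted as well, as was a variant that reads GGGTCA. The last variant that was accepted had the letters GGTTCA. A match needed any of these units to be followed, after 5 bases, by any of them on the same strand. Both are RefSeq promoters of GRCm38.p6, from 250 bases before to 50 bases after the start, Cyp26a1 at chr19:37697558-37697857 on the plus strand and Cyp26b1 at chr6:84593761-84594060 on the minus strand.
Cyp26a1: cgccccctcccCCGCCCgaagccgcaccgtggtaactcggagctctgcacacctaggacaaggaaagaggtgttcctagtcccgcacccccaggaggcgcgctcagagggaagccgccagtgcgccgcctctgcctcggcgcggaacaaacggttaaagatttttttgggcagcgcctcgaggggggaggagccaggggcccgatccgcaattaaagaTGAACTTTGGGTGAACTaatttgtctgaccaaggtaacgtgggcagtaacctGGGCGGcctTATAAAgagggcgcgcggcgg
Cyp26b1: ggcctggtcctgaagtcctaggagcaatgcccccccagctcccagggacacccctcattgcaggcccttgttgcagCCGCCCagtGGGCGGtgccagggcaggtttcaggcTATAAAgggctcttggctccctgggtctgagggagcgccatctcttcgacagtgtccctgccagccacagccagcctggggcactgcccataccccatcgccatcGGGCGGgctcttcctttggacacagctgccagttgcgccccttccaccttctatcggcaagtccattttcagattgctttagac
The repeat in the Cyp26a1 promoter lies 32 to 16 bases before the start and reads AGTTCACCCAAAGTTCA on the minus strand. Such a repeat was found in 0.0974% of the 32851 promoters, 32 in all, and in no other of the 12 promoters. Among 56 promoters of 41 other retinoid pathway genes, it was found for Rarb alone. The same repeat with a spacer of 2 bases was found in 0.268% of all promoters and in none of the 12. A match is a string of letters, and no binding was measured here.

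The 6 genes that passed the filter whatever population is left out were Crabp1, Crabp2, Rbp4, Stra6, Aldh1a3 and Cyp26b1. Between sheath and fibroblasts 5 of these 6 were called, against 13.4% of all tested genes. Crabp1 and Crabp2 were higher in sheath, while Rbp4, Stra6 and Aldh1a3 were lower. The median log2 difference of the 6 was -1.27, against -0.03 over all tested genes. Aldh1a1 and Aldh1a2 passed the filter only with the fibroblast and the sheath libraries, respectively, in which they were high. With these 2 genes added, 7 of all 8 genes were called. This number was 4 without either sheath library or library 1 of fibroblasts and 3 without library 2 of fibroblasts, where 10.2%, 10.7%, 10.2% and 9.44% of all genes were called in that order. Between sheath and papilla 3 of 6 were called, Crabp1, Crabp2 and Aldh1a3, all lower in sheath, against 14.6% of all genes, and the median was -1.75 against -0.09. Over all 8 genes the number was 4, and with a pseudocount of 0.1 it was 2, with 12.4% of all genes called. Between papilla and fibroblasts 4 of 6 were called, against 14.2% of all genes, with a median of 0.56 against 0.05. Crabp1, Crabp2 and Aldh1a3 were higher in papilla, and Rbp4 was lower. These 3 comparisons share libraries and are not independent. Outer root sheath and matrix differed in 2 of 6, Stra6 and Aldh1a3, both lower in outer root sheath, against 7.11% of all genes. The median was 0.01 against -0.03.

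Dermal populations differed from the other populations mainly by higher levels, and the background of calls was high there too. Against outer root sheath, 4 of the 6 genes were higher in sheath, 5 in papilla and 5 in fibroblasts, where 36.9%, 34.2% and 33.5% of all tested genes were called in either direction. Against melanocytes, 5 of 6 were higher in sheath, 5 in papilla and 6 in fibroblasts, with 34.5%, 32.4% and 22.7% of all genes called. None was lower in these 6 comparisons. Against matrix, sheath had 4 higher and 2 lower, papilla 4 higher and 1 lower, and fibroblasts 4 higher and 2 lower, with 41.5%, 38.9% and 37% of all genes called. The genes lower than in matrix were Stra6 in all 3 dermal populations and Aldh1a3 in sheath and fibroblasts. Matrix had 2 genes higher than melanocytes, Stra6 and Aldh1a3, with 28.6% of all genes called. Between outer root sheath and melanocytes, limma called none of the 8 tested genes, with 2 at an unadjusted p under 0.05, while 27.1% of all genes were called. Over all 15 pairs, 63 of 90 tests of the 6 genes were called, against 27.8% of the tests of all genes.

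**Figure D3:**
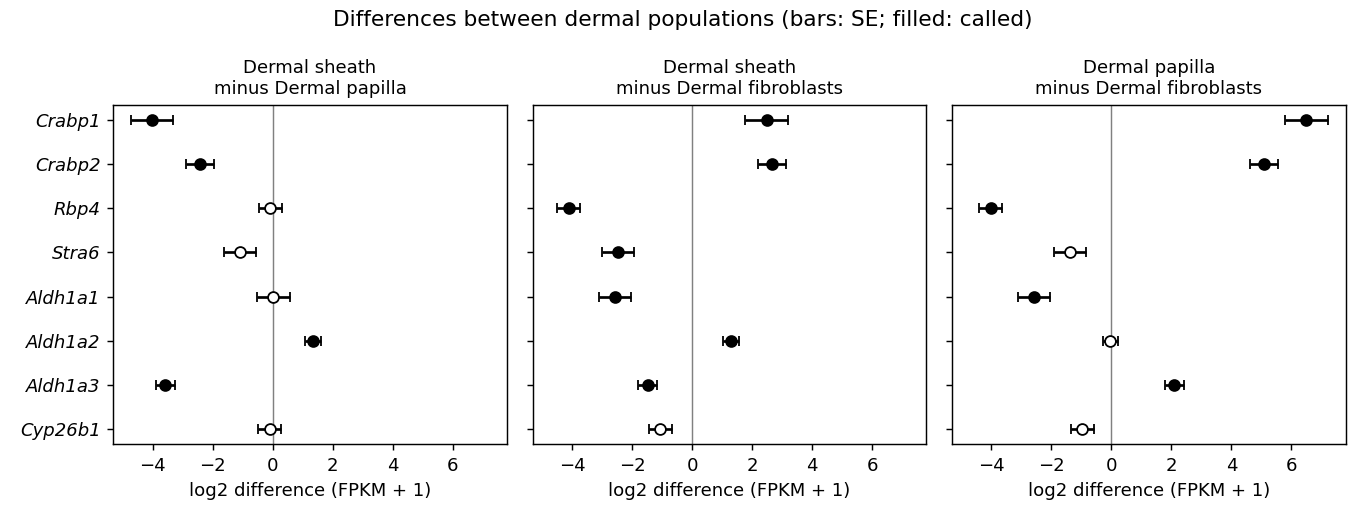
Log2 differences of FPKM + 1 on the horizontal axis for the 8 tested genes in the 3 comparisons between dermal populations. Points are limma estimates, bars their standard errors, and filled points were called, all from the fit with the filter, Aldh1a1 and Aldh1a2 included. Crabp1 and Crabp2 lie on opposite sides of 0 in the first and the second panel, at -4.02 and 2.48 and at -2.41 and 2.66.

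Other genes of the retinoid pathway were described from a list of 56, of which 54 were in the table and 44 were tested. Of these, 3 were higher and 5 lower in sheath than in papilla, 3 higher and 3 lower in sheath than in fibroblasts, and 5 higher and 6 lower in papilla than in fibroblasts. Among all tested genes 14.6%, 13.4% and 14.2% were called, in that order, so the 8 and 6 calls of 44 in the sheath comparisons lie near the background. Between outer root sheath and matrix, 5 were higher and 2 lower in outer root sheath, against 7.11% of all genes. In transport and storage, 7 genes were tested and 1 passed in any dermal comparison, Fabp5, which encodes a fatty acid-binding protein that can also bind retinoic acid and is named after its values were seen. Fabp5 was at 41.8 ± 2.83 FPKM in papilla, 46.0 ± 2.70 in sheath and 85.2 ± 8.90 in fibroblasts. It was lower in papilla than in fibroblasts by -1.01 ± 0.23, 2.01-fold (limma adjusted p = 0.00947), and sheath minus fibroblasts was -0.87 ± 0.23 (limma adjusted p = 0.0222), under the size needed for a call.

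Among 14 tested genes that interconvert retinol and retinal, Dhrs3, which encodes a retinal reductase, was the one called higher in sheath than in both other dermal populations. The sheath libraries held 125 and 122 FPKM, the papilla libraries 48.3 and 30.0 FPKM, and the fibroblast libraries 26.0 and 19.4 FPKM. Sheath was above both without overlap. The difference was 1.67 ± 0.29 to papilla, 3.17-fold (limma adjusted p = 0.00184), and 2.40 ± 0.29 to fibroblasts, 5.29-fold (limma adjusted p = 0.000158). Papilla minus fibroblasts was 0.74 ± 0.29 (limma adjusted p = 0.121). Rdh10, which encodes the retinol dehydrogenase of the opposite reaction, was at 12.9 ± 5.11 FPKM in sheath, 7.10 ± 0.717 in papilla, 7.00 ± 2.40 in fibroblasts and 14.2 ± 7.44 in melanocytes. No dermal comparison of Rdh10 passed. Sheath minus fibroblasts was 0.78 (limma adjusted p = 0.373), and it was 2.73 (limma adjusted p = 0.0116) once melanocyte RNA was taken off the fibroblast values. That step moved the median log2 difference over all genes from -0.03 to 0.81 for sheath minus fibroblasts and from 0.05 to 0.88 for papilla minus fibroblasts, and values after it are to be read against these medians. Adh7, an alcohol dehydrogenase that can oxidise retinol, was at 16.5 ± 5.88 FPKM in sheath, 3.32 ± 1.11 in papilla and 24.6 ± 15 in fibroblasts. It was higher in sheath than in papilla by 2.00 ± 0.42 (limma adjusted p = 0.00685) and lower in papilla than in fibroblasts by -2.46 ± 0.42 (limma adjusted p = 0.0019). The first of these was lost without library 2 of sheath (limma adjusted p = 0.0665) or library 1 of papilla (limma adjusted p = 0.0697).

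The nuclear receptors of retinoic acid differed among themselves. Rara was at 59.7 ± 12.9 FPKM in sheath, 36.9 ± 4.38 in papilla and 16.2 ± 0.891 in fibroblasts. Sheath exceeded fibroblasts by 1.81 ± 0.32 (limma adjusted p = 0.00249) and papilla exceeded them by 1.14 ± 0.32 (limma adjusted p = 0.0335), while sheath minus papilla was 0.67 (limma adjusted p = 0.223). The papilla call was lost without any 1 of the 4 libraries compared (limma adjusted p from 0.0937 to 0.184), with no filter on low values (limma adjusted p = 0.0554) and with a pseudocount of 5 (0.98). Rarg was at 36.7 ± 7.72 FPKM in sheath, 33.3 ± 6.65 in papilla, 17.6 ± 4.21 in fibroblasts and 1.10 ± 0.511 in melanocytes. Its sheath minus fibroblast difference of 1.02 ± 0.30 (limma adjusted p = 0.0390) lost its call in 13 of 25 alternatives. Rarb, a receptor gene that retinoic acid induces in many cells, was instead lowest in sheath among the dermal populations, while papilla and fibroblasts overlapped. The sheath libraries held 0.209 and 0.725 FPKM, the papilla libraries 7.16 and 11.6 FPKM, the fibroblast libraries 8.28 and 13.1 FPKM, and the melanocyte libraries 18.0 and 18.0 FPKM. Sheath lay below all of these. It overlapped with outer root sheath, at 1.09 and 0.652 FPKM, and with matrix, at 0.701 and 0.334 FPKM. Rarb was lower in sheath than in papilla by -2.81 ± 0.34, 7.03-fold (limma adjusted p = 0.000153), and lower than in fibroblasts by -2.99 ± 0.34, 7.93-fold (limma adjusted p = 0.000107). After subtraction of melanocyte RNA, sheath minus fibroblasts was -0.88 (limma adjusted p = 0.337). Papilla minus fibroblasts for Rarb was -0.17 (limma adjusted p = 0.823) and turned to 1.93 (limma adjusted p = 0.0491) after this subtraction.

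Of 14 tested genes listed for a response to retinoic acid, 2 were higher and 4 lower in sheath than in papilla, Rarb and Dhrs3 among them, against 14.6% of all genes called. Between sheath and fibroblasts, 1 was higher and 2 lower in sheath, against 13.4% of all genes. Papilla had 2 higher and 2 lower than fibroblasts, against 14.2% of all genes. Rarres2, which encodes the adipokine chemerin, was at 255 ± 7.38 FPKM in fibroblasts, 15.3 ± 7.32 in sheath and 18.0 ± 1.12 in papilla. It was lower in sheath than in fibroblasts by -4.05 ± 0.38 (limma adjusted p = 2.73e-05) and lower in papilla by -3.76 ± 0.38 (limma adjusted p = 3.96e-05). Lox, which encodes the collagen cross-linking enzyme lysyl oxidase, was at 94.0 ± 19.8 FPKM in sheath, 6.13 ± 0.963 in papilla and 99.4 ± 14.4 in fibroblasts. It was higher in sheath than in papilla by 3.73 ± 0.33 (limma adjusted p = 2.20e-05). The homeobox genes Meis1 and Meis2 went the other way. Prrx1, another homeobox gene listed, overlapped between sheath, at 93.4 and 178 FPKM, and papilla, at 77.7 and 122 FPKM. Meis1 was at 59.3 ± 11.4 FPKM in papilla and 13.2 ± 2.72 in fibroblasts, a difference of 2.08 ± 0.33 (limma adjusted p = 0.00112). Meis2 was at 4.70 ± 3.15 FPKM in sheath and 21.1 ± 7.39 in papilla, a difference of -2.03 ± 0.42 (limma adjusted p = 0.00564), lost without library 1 of sheath (limma adjusted p = 0.0628), without library 2 of papilla (limma adjusted p = 0.0659) or with a pseudocount of 0.1 (limma adjusted p = 0.0847).

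**Figure D4:**
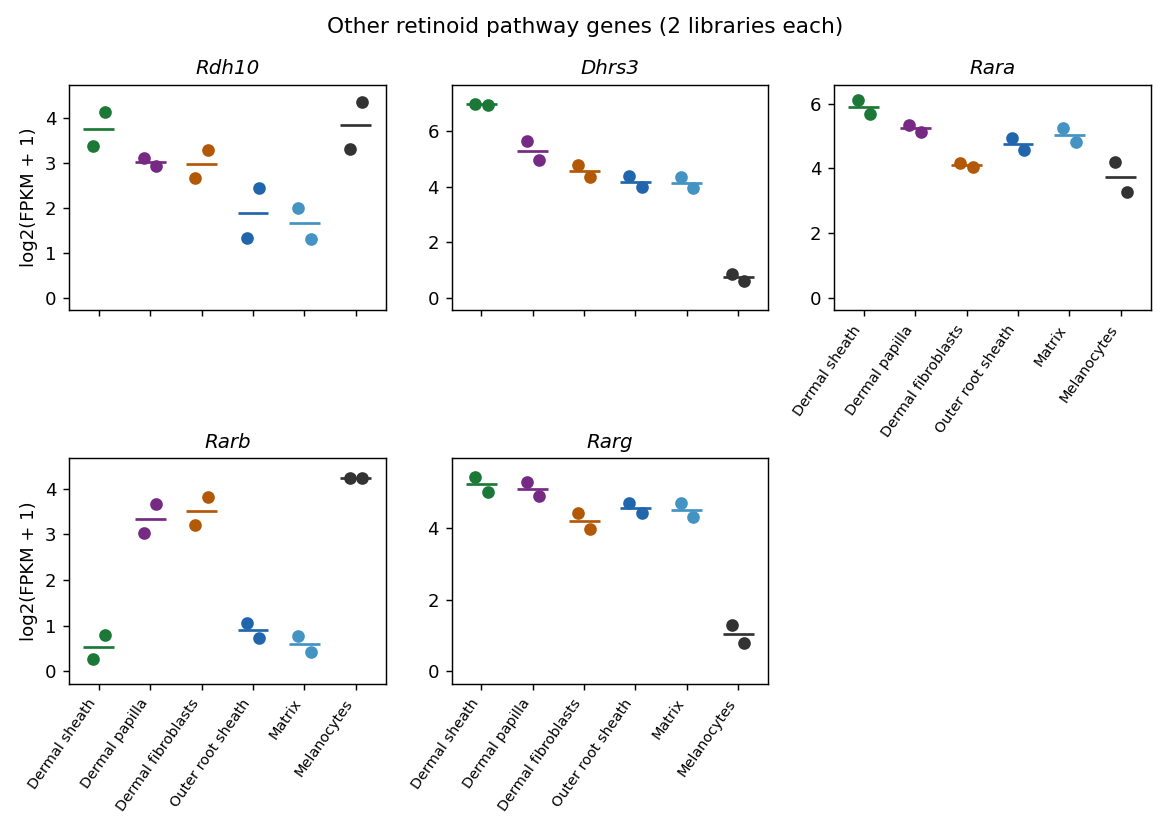
Level of 5 other retinoid pathway genes as log2(FPKM + 1) on the vertical axis in the 6 populations on the horizontal axis. Points are the 2 libraries and lines their mean. Dhrs3 was highest in sheath at 125 and 122 FPKM. Rarb in sheath, at 0.209 and 0.725 FPKM, lay below papilla, fibroblasts and melanocytes and overlapped with outer root sheath and matrix. Vertical scales differ between panels.

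The genes closest in pattern were taken as the 3 tested genes with the highest Pearson correlation of log2(FPKM + 1) over the 12 libraries. Since libraries share a population, these values describe likeness between 6 populations. For Crabp1 they were Phf21a (0.989), Rspo3 (0.988) and Pappa2 (0.986), and for Crabp2 Dram1 (0.983), Vipr2 (0.976) and Lepr (0.973), all highest in papilla. For Rbp4 they were Nov (0.991), Camk2a (0.988) and P4ha2 (0.979), and for Cyp26b1 Pth1r (0.993), Vstm4 (0.991) and Osr1 (0.989), all highest in fibroblasts. Stra6 was most like Tgm3 (0.925), Ovol1 (0.924) and Aim1l (0.921), which were highest in matrix. Aldh1a3 was most like Gm15217 (0.933), Hs3st3b1 (0.929) and Unc5b (0.915). Aldh1a1 had the weakest likeness, with Snora43 (0.875), Slc41a2 (0.870) and Abcb10 (0.857). Among the 9 genes themselves, Rbp4 and Cyp26b1 had a correlation of 0.874, Crabp1 and Cyp26b1 of 0.838, Stra6 and Aldh1a3 of 0.571, and Stra6 and Crabp1 of -0.339.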

How the data were processed

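RNA was amplified and sequenced from 12 sorted libraries, 2 for each of 6 populations, and grouped by the labels. The authors deposited 1 table with a column of FPKM for each library. The mm10 build, Cufflinks 2.1.1, Bowtie2 and TopHat2 2.0.3 are named per the submitters' processing notes; how each was used, the annotation and any filter are not given in the sources used here. That the unit is FPKM follows from Cufflinks and from values that are not whole and never negative. The table holds 15 repeated symbols and 119 entries with several symbols. The sources used here do not say which populations shared a library preparation.

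From there, log2(FPKM + 1) was modelled with limma (3.58.1, under R 4.3.3), all 12 libraries together, with a trended prior variance and 6 residual degrees of freedom. A gene needed 1 FPKM or more in 2 libraries, which left 13974 genes. The other 5176 genes were not tested. All 15 pairs of populations were compared, with two-sided p-values and Benjamini-Hochberg adjustment within a pair. A fold is 2 to the power of the log2 difference and understates changes of low genes. Fibroblast, sheath and papilla libraries were also analysed with RNA of other populations subtracted, at the median marker share, without rescaling the rest.

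The genes and lists were chosen with earlier results of these data known. All 9 genes are named whatever their values. Other pathway genes named are up to 4 called genes a dermal comparison, by size of difference and with at least 5 FPKM in the higher population, plus Rdh10, Dhrs3, Rara, Rarb and Rarg. Fabp5, Prrx1 and the markers were named after their values were seen. The result of 1 further gene is not reported here. Genes of like pattern are the 3 with the highest correlation, for genes that reach a mean of 5 FPKM in 1 population. Gene positions come from GENCODE M21 (mm10) and promoters from RefSeq (GRCm38.p6). Alternatives were a pseudocount of 0.1 or 5, no filter, a minimum of 5 FPKM, quantile normalization, median-of-ratios scaling, no intensity trend, separate fits of dermal and other libraries, each pair alone, a replicate block, each library left out, and subtraction of melanocyte, matrix or papilla RNA. The matrix and papilla subtractions were added after the data were seen.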

Additional observations from a re-analysis of the deposited data

How the results depend on the processing

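Alternatives that leave out 1 library gave 820 values, of which 758 kept direction and call, 40 lost the call, 4 gained it and 18 changed sign; the other alternatives gave 867 values, of which 815, 36, 10 and 6 did so. Leaving out a library gave 3 to 7 calls among the 8 tested genes, Aldh1a1 and Aldh1a2 included, for sheath against fibroblasts (7 in the full fit), 3 to 4 for sheath against papilla, 4 to 6 for papilla against fibroblasts, 1 to 3 for outer root sheath against matrix, and 63 to 76 over all 15 pairs. A pseudocount of 0.1 gave 2 calls for sheath against papilla and 1 for outer root sheath against matrix, and the cause was not tested. Signs changed for Rbp4 sheath minus papilla (0.056, quantile), Rdh10 papilla minus fibroblasts (-0.045, quantile), Stra6 sheath minus papilla (0.22, matrix RNA subtracted), Rarb papilla minus fibroblasts (1.93, melanocyte RNA subtracted), Crabp1 sheath minus fibroblasts (-0.52, papilla RNA subtracted) and Aldh1a3 sheath minus outer root sheath (-0.94, papilla RNA subtracted). With a library left out, signs also changed in differences near 0. These ranged from -0.84 to 0.89 (Crabp1), -0.21 to 0.86 (Crabp2), -0.30 to 0.063 (Aldh1a2) and -0.41 to 0.57 (Cyp26b1) for outer root sheath minus matrix, from -0.63 to 0.46 (Rbp4), -0.34 to 0.15 (Cyp26b1) and -0.076 to 0.34 (Rarg) for sheath minus papilla, and from -0.18 to 0.11 (Aldh1a2), -0.49 to 0.14 (Rarb) and -0.26 to 0.36 (Rdh10) for papilla minus fibroblasts.

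Libraries with the same replicate number deviated together, with correlations of 0.193 to 0.539 over the 15 pairs of populations, but each population has only 2 numbers and no label ties them to an animal or batch. With a replicate block, 8, 4, 5 and 2 of the 8 tested genes were called in the 4 comparisons in the order above, and 73 over all pairs, while the share of all genes called went to 15.2%, 16.4%, 15.8% and 9.47%. Depth is unknown, so no floor can be set for genes listed at 0.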
